A study of Mus musculus with 6 samples.

Results

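ERVL and MaLR elements, which are long terminal repeat (LTR) retrotransposons, were followed through 6 libraries of RNA from mouse P19 cells. The members were all annotated features named in the ERVL or the ERVL-MaLR family, and the reads of their copies were summed per subfamily. This gave 212 subfamilies, 109 of ERVL and 103 of ERVL-MaLR, from 101190 copies with a read, out of 1753368 annotated features with a read in any library. Names that end in -int denote internal parts, of which ERVL had 15 and ERVL-MaLR had 51, and the remaining 94 and 52 names denote LTRs. The files give no genome positions for the copies, so a copy is known here only by its subfamily name and its number.

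The libraries come from an eCLIP experiment on mouse Gtsf1 (Asterix), a zinc-finger cofactor of piRNA-guided silencing. In eCLIP, ultraviolet light joins RNA to the protein that touches it, the protein is purified, and the RNA that remains is sequenced. P19 is a mouse embryonal carcinoma line. All groups, inputs included, were P19 cells transfected transiently with Gtsf1 carrying a C-terminal TEV-Strep tag, which the pEF vector expressed from the EF-1alpha promoter, so no group without the tagged protein was compared. The crosslinked groups are called UV here: UV pull-downs (n = 2) were captured on MagStrep XT beads from cells irradiated at 254 nm with 400 mJ, and UV inputs (n = 2) were set aside from such lysates. Cells were taken 48 hours after transfection. The no-UV pull-down (n = 1) and input (n = 1) came from cells labelled as not crosslinked, and their values have no replicate check. The labels do not say whether replicates came from separate cultures, so p-values measure only the spread between these libraries, which may be technical.

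ERVL elements descend from an old lineage of endogenous retroviruses that entered mammalian genomes long ago and stayed active in rodents, where the youngest members are MERVL and its LTR, MT2_Mm. MaLR elements (MT, ORR1 and MLT1 in the mouse) are non-autonomous relatives of ERVL, with LTRs and an internal part but without the coding capacity to move by themselves. Most copies of both kinds are solitary LTRs, left behind when the ends of an element recombine and the internal part is lost. MERVL and MT elements are known for their transcription in oocytes and early embryos, and the piRNA pathway, in which Gtsf1 acts, silences LTR retrotransposons in germ cells. Names carry a rough age order: MLT1, MLT2 and most subfamilies whose names begin with LTR are old and shared among mammals, and within MT and ORR1 the letter A marks the youngest subfamilies.

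The libraries held between 13168593 and 18418166 reads, and between 6.99% and 14.4% of the reads of a library had no annotation. RPM scales a count to all reads of its library, annotated or not, and 1 read was worth between 0.0543 and 0.0759 RPM. Of 8 pluripotency genes, 6 had at least 1 RPM of exon reads in every input, among them Pou5f1 (35.4 and 30.4 RPM in the UV inputs, 31.4 RPM in the no-UV one), and the list summed to between 84.5 and 110.6 RPM per input. Of 9 genes of the 2-cell-like state, in which MERVL is active, 7 were at 0 in every input, and the list summed to at most 0.0724 RPM in an input. In such bulk samples, fewer cells that carry an RNA and less of it per cell cannot be told apart.

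Both families held a larger share of the reads in the pull-downs than in the inputs, with and without crosslinking. ERVL took 0.0454% and 0.0462% of the reads of the UV inputs, 0.0596% and 0.0589% of the UV pull-downs, 0.0193% of the no-UV input and 0.0293% of the no-UV pull-down. The UV pull-downs lay above both inputs, and the no-UV pull-down lay above its own input but below every UV library. The mean share was 0.0593% ± 0.000501 (SD, n = 2) against 0.0458% ± 0.000533 (SD, n = 2), a 1.29-fold difference, and the no-UV pair differed 1.52-fold. The 95% Wilson intervals of the no-UV pair ran from 0.0186% to 0.02% in the input and from 0.0284% to 0.0302% in the pull-down, and they cover counting error only.

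ERVL-MaLR took 0.243% and 0.214% of the UV inputs, 0.281% and 0.276% of the UV pull-downs, 0.085% of the no-UV input (interval 0.0835% to 0.0865%) and 0.146% of the no-UV pull-down (interval 0.144% to 0.148%). As in ERVL, both UV pull-downs lay above both UV inputs, and the no-UV pull-down lay between its own input and the UV libraries. The mean share was 0.279% ± 0.0033 (SD, n = 2) in the pull-downs and 0.228% ± 0.0208 (SD, n = 2) in the inputs, a 1.22-fold difference, and the no-UV pair differed 1.72-fold. For either family the two-sided exact permutation test gave p = 0.333, the smallest that 6 arrangements of 2 against 2 libraries allow, and 0.428 after Benjamini-Hochberg adjustment over 9 shares tested, so no share could pass 0.05. In the same libraries the ERV1 family differed 1.34-fold with crosslinking and 1.46-fold without, while the ERVK family, the largest in reads, was lower in the pull-downs (0.849-fold and 0.719-fold).

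**Figure D1:**
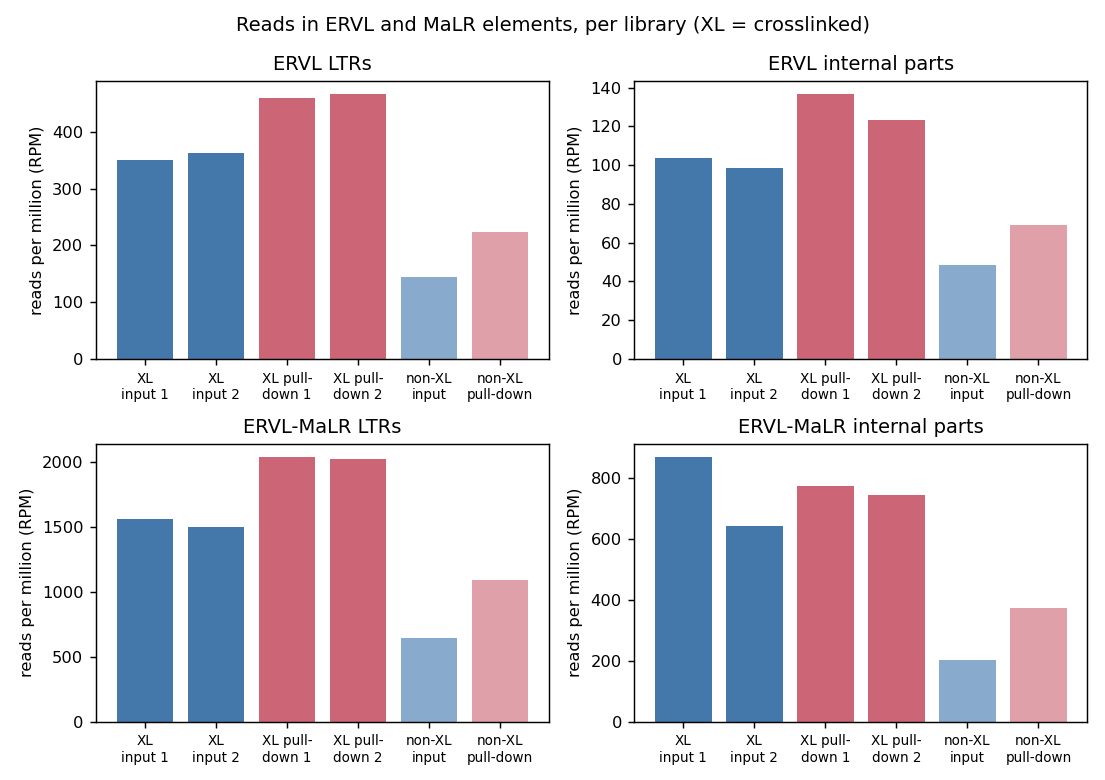
Summed RPM (vertical axes from 0) of the LTRs and internal parts of ERVL and ERVL-MaLR in each of the 6 libraries (XL, UV; non-XL, no UV; 1 bar per library, no error bars). In 3 of the 4 panels both UV pull-downs stand above both inputs; the internal parts of ERVL-MaLR overlap, with 868 and 641 RPM in the inputs and 774 and 743 RPM in the pull-downs.

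Internal parts and LTRs differed in the sums of ERVL-MaLR. The LTRs of ERVL-MaLR were 1.33-fold higher in the UV pull-downs than in the inputs, while its internal parts were at 1.01-fold and overlapped between the groups. In ERVL the LTRs (1.30-fold) and the internal parts (1.28-fold) stood at similar ratios. Internal reads per LTR read of ERVL-MaLR were 0.556 and 0.429 in the UV inputs, 0.380 and 0.368 in the UV pull-downs, 0.314 in the no-UV input and 0.342 in the no-UV pull-down. The UV pull-downs were lower by 0.38 on the log2 scale (exact permutation p = 0.333, two-sided, 0.555 adjusted over 5 ratios), and the no-UV pull-down was higher by 0.13.

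A single copy set this direction. Without ORR1A2-int_dup182, described further on, the ratio of ERVL-MaLR was 0.243 and 0.225 in the UV inputs and 0.301 and 0.274 in the pull-downs, a difference of 0.30 in the opposite direction. The same ratio in ERVL was 0.296 and 0.272 in the UV inputs, 0.297 and 0.264 in the pull-downs, 0.338 in the no-UV input and 0.310 in its pull-down, so the UV groups overlapped (log2 difference -0.02, exact permutation p = 1). Leaving out UV input 1 or pull-down 2 turned this small difference to 0.04 and 0.07.

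The balance between the families also turned on that copy. There were 0.187 and 0.216 ERVL reads per ERVL-MaLR read in the UV inputs and 0.212 and 0.213 in the UV pull-downs, against 0.227 and 0.200 in the no-UV input and pull-down. The UV groups overlapped, with a log2 difference of 0.08 (exact permutation p = 1, two-sided, 1 adjusted over 5 ratios) against SDs of 0.15 in the inputs and 0.0049 in the pull-downs, on the log2 scale. Without UV input 1 the difference was -0.02. Without ORR1A2-int_dup182 the ratios were 0.234 and 0.252 in the inputs and 0.225 and 0.229 in the pull-downs, so the pull-downs lay below both inputs, with a log2 difference of -0.10. Reads of both families per ERVK read were 0.420 and 0.433 in the UV inputs and 0.575 and 0.671 in the pull-downs (log2 difference 0.54, exact permutation p = 0.333, 0.555 adjusted over 5 ratios), and the no-UV pull-down was higher than its input by 1.23.

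Members were then tested by subfamily with the quasi-likelihood test of edgeR on the UV libraries, in a table of 39069 rows with a mean of at least 1 RPM. The filter passed 55 of 109 ERVL subfamilies (11 internal, 44 LTR) and 82 of 103 ERVL-MaLR subfamilies (32 internal, 50 LTR). Of these, 20 ERVL and 35 ERVL-MaLR subfamilies were higher in the pull-downs at a Benjamini-Hochberg adjusted p under 0.05, and 0 were lower. Over all rows tested, 5.33% were called higher and 2.72% lower, and over the 677 subfamilies of all transposable elements 45.3% were called higher and 0.886% lower. The counts of both families thus lay far above the share over all rows and close to the share over transposable elements. At an unadjusted p under 0.05, edgeR had 29 ERVL and 55 ERVL-MaLR subfamilies higher, and 1 and 2 lower. At that threshold 3010 of all 39069 rows were higher and 5491 lower, and of the 677 transposable element subfamilies 442 were higher and 20 lower. DESeq2 and limma also called 0 lower. Fitted alone, without the other rows, the transposable elements gave 28 ERVL and 52 ERVL-MaLR calls higher, the 55 above among them. That fit also gave 3 calls lower, which were MERVL-int, MTA_Mm and ORR1A2-int (edgeR adjusted p between 0.0021 and 0.015). The share of all transposable elements called in that fit is not given here. With no filter on low values edgeR called 0 of either family, against 42 ERVL and 55 ERVL-MaLR subfamilies higher at an unadjusted p under 0.05.

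Pull-downs lay above both inputs for 38 ERVL and 63 ERVL-MaLR subfamilies, against 10.2% of all rows and 74.4% of transposable element subfamilies. They lay below both inputs for 7 and 5, against 57.8% of all rows and 8.71% of transposable element subfamilies. The median log2 difference in RPM was 0.58 in ERVL and 0.49 in ERVL-MaLR, against -0.30 over all rows and 0.63 over transposable element subfamilies. The test called 5 of 11 internal parts and 15 of 44 LTRs in ERVL, and 14 of 32 and 21 of 50 in ERVL-MaLR, and the difference between the kinds was not tested. A mean input level under 1 RPM was found in 10 of the 55 tested ERVL subfamilies. These passed the filter only through the pull-downs and so had to differ; 7 of the 20 ERVL calls were among them, and 13 of the other 45 subfamilies were called. In ERVL-MaLR 1 tested subfamily was of this kind, and it was not called. Leaving the copy with the most reads out of each subfamily gave 9 calls among 42 tested ERVL subfamilies and 18 among 79 of ERVL-MaLR, of which 24 were shared with the 55 above, and leaving out UV input 1 or UV input 2 gave 19 ERVL-MaLR calls in either case.

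By groups of related names, the test called 18 of 34 MLT1 subfamilies, 5 of 8 MLT2 subfamilies, 10 of 18 ERVL subfamilies whose names begin with LTR, and 3 of 6 internal parts named ERVL or HERV. It called 7 of 20 MT, 10 of 28 ORR1, 1 of 4 RMER, 0 of 8 MER, and 0 of 8 MERVL and MT2 subfamilies. The share over all transposable element subfamilies was 45.3%, as given above, and several of these counts lie near it. Of the calls, 5 of the LTR group, 1 of MLT2 and 1 of the ERVL and HERV internal parts belong to subfamilies that passed the filter only through the pull-downs. At an unadjusted p under 0.05, 1 of the 8 MER subfamilies was higher, and 1 of the 8 MERVL and MT2 subfamilies was higher and 1 lower. DESeq2 and limma also called 0 in each of these groups of 8. Whether these groups differ from each other was not tested.

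The 5 ERVL subfamilies with the largest called differences were rare in the inputs. Of these, LTR16B2, MLT2C2, HERV16-int and LTR50 passed the filter only through the pull-downs, so their selection fixed the direction. LTR16B2 had 0.573 and 0.489 RPM in the UV inputs, 5.92 and 5.84 RPM in the UV pull-downs, 0.318 RPM in the no-UV input and 5.89 RPM in the no-UV pull-down. All 3 pull-downs stood at one level, far above the 3 inputs. The edgeR log2 fold change was 3.55 (SE 0.19, adjusted p = 0.000597), and the no-UV pair differed 18.5-fold. Within LTR16B2, an ERVL LTR, 1 copy, LTR16B2_dup117, supplied 85.3% of the reads of the UV pull-downs, and the other copies differed 1.63-fold.

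MLT2B4, an old ERVL LTR, had 3.97 and 4.04 RPM in the UV inputs, 16.7 and 16.2 RPM in the pull-downs, 1.56 RPM in the no-UV input and 12.8 RPM in its pull-down. All pull-downs were again above all inputs (log2 fold change 2.14, SE 0.15, edgeR adjusted p = 0.000688). Here the difference did not rest on 1 copy: without MLT2B4_dup1697, which held 37.6% of the pull-down reads, the log2 fold change was 1.51 (edgeR adjusted p = 0.0021). MLT2C2 (0.773 and 0.326 RPM against 6.32 and 4.52 RPM, log2 fold change 3.36), HERV16-int, an internal part (0.458 and 0.489 against 2.62 and 2.65 RPM, 2.54), and LTR50 (0.982 and 0.434 against 2.45 and 3.22 RPM, 2.11) were also called. Single copies weighed heavily in these: MLT2C2_dup74 held 84.4% and HERV16-int_dup97 76.6% of the pull-down reads, and the other copies differed 1.54-fold and 1.70-fold. Without its most-read copy LTR50 was no longer called (log2 fold change 1.13, edgeR adjusted p = 0.146).

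In ERVL-MaLR the largest called difference belonged to ORR1C1-int, an internal part. It had 6.46 and 6.17 RPM in the UV inputs, 43.5 and 51.0 RPM in the UV pull-downs, 2.44 RPM in the no-UV input and 43.0 RPM in the no-UV pull-down. The 3 pull-downs were alike, and the groups did not overlap (log2 fold change 2.99, SE 0.18, edgeR adjusted p = 0.000598). The copy ORR1C1-int_dup525 held 67.7% of the reads of the UV pull-downs and 4.59% of those of the inputs. The rest of the subfamily was still called without it, at a log2 fold change of 1.43 (edgeR adjusted p = 0.0030).

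The next in order were MLT1H-int (0.973 and 1.14 against 3.05 and 4.36 RPM, log2 fold change 1.89), MLT1H (2.66 and 2.36 against 8.20 and 7.93 RPM, 1.77), ORR1B2-int (3.87 and 4.71 against 13.9 and 13.1 RPM, 1.75) and MLT1E (1.72 and 2.01 against 5.88 and 4.26 RPM, 1.54). Internal part and LTR of MLT1H, an old MaLR, were thus both called. Without the most-read copy MLT1H was still called (1.46, edgeR adjusted p = 0.0032), while ORR1B2-int (0.72, edgeR adjusted p = 0.060) and MLT1E (0.61, edgeR adjusted p = 0.244) were not, and MLT1H-int no longer reached the filter. Without crosslinking, the pull-down exceeded the input 6.39-fold for MLT1H, 7.65-fold for ORR1B2-int and 4.40-fold for MLT1E. The input of MLT1H-int was under the floor of 3 reads there.

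Most of the subfamilies with the most reads did not pass the test. MTD, an LTR of the MT lineage with 8400 copies read, had 271 and 248 RPM in the UV inputs and 309 and 309 RPM in the pull-downs (log2 fold change 0.35, edgeR adjusted p = 0.272, and 0.010 with transposable elements fitted alone). MTC had 136 and 129 RPM against 141 and 131 RPM, and the groups overlapped (0.13, edgeR adjusted p = 0.668). ORR1F, by contrast, was called, with 73.0 and 81.2 RPM in the UV inputs, 134 and 140.5 RPM in the pull-downs, 28.9 RPM in the no-UV input and 109.7 RPM in its pull-down (log2 fold change 0.92, SE 0.17, edgeR adjusted p = 0.023). That call was lost without UV input 1 (0.83, edgeR adjusted p = 0.129).

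Among the most abundant ERVL subfamilies, RMER15 (36.0 and 34.0 against 48.1 and 47.6 RPM, log2 fold change 0.54), RMER10A (34.8 and 35.0 against 43.6 and 45.2 RPM, 0.44) and MT2B1 (32.6 and 27.8 against 38.1 and 35.6 RPM, 0.38) had pull-downs above both inputs but no call. With transposable elements fitted alone these 3 were called (edgeR adjusted p = 0.0017, 0.0046 and 0.018). RMER15 was also called under TMM scaling (edgeR adjusted p = 0.032). The difference of MT2B1 rested on 1 copy, MT2B1_dup6913. Without it MT2B1 had 32.5 and 27.8 against 32.0 and 28.7 RPM, which overlapped, and 11.9 against 8.67 RPM in the no-UV pair. Without the most-read copy of each, the log2 fold change was 0.10 for MT2B1 (edgeR adjusted p = 0.760), 0.49 for RMER15 (0.119) and 0.39 for RMER10A (0.278). MERVL_2A-int overlapped between groups (40.3 and 39.8 against 48.9 and 39.1 RPM). In the fit of all rows, the edgeR adjusted p of these 4 lay between 0.0909 and 0.495.

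MERVL itself lay on the low side of the table. MERVL-int, the internal part with the gag and pol genes, had 29.3 and 27.9 RPM in the UV inputs, 18.3 and 20.5 RPM in the pull-downs, 19.3 RPM in the no-UV input and 10.7 RPM in its pull-down. Each pull-down was below every input of its own crosslinking state, but the log2 fold change of -0.47 (SE 0.16) did not pass (edgeR adjusted p = 0.145). With transposable elements fitted alone it did (edgeR adjusted p = 0.0080). Its LTR, MT2_Mm, had 6.91 and 7.59 RPM against 5.39 and 5.99 RPM with crosslinking and 4.12 against 3.52 RPM without (-0.26, edgeR adjusted p = 0.390). Without the copy MT2_Mm_dup1147, MT2_Mm had 4.18 and 4.92 RPM in the UV pull-downs and 2.00 RPM in the no-UV one. Without its most-read copy the log2 fold change was -0.59, again without a call (edgeR adjusted p = 0.097). The copy MERVL-int_dup826 (2.64 and 2.37 RPM against 1.13 and 1.32 RPM, and 0.989 against 0.304 RPM) was the only member copy called lower, at a log2 fold change of -0.94 (edgeR adjusted p = 0.024). That call was lost without UV input 1 (edgeR adjusted p = 0.056), without UV pull-down 1 (edgeR adjusted p = 0.104) and under TMM scaling.

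The LTRs of the youngest MT and ORR1 subfamilies were also low in the pull-downs, while their internal parts overlapped between the groups. MTA_Mm, the LTR of the youngest MT lineage, had 78.7 and 74.8 RPM in the UV inputs, 52.4 and 49.0 RPM in the pull-downs, 43.1 RPM in the no-UV input and 20.4 RPM in its pull-down. Its pull-downs were below the inputs in both states, without a call (log2 fold change -0.51, edgeR adjusted p = 0.117), though it was called with transposable elements fitted alone (edgeR adjusted p = 0.0021). Its internal part, MTA_Mm-int, overlapped (54.7 and 46.4 against 55.0 and 47.1 RPM). ORR1A0 had 11.3 and 9.54 against 7.61 and 7.63 RPM (-0.35, edgeR adjusted p = 0.238), and ORR1A0-int overlapped, at 16.7 and 15.3 against 17.5 and 14.4 RPM. On the scale of this test the median of all rows was -0.21, and TMM factors move it to -0.00.

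Summed by the letter of the name, LTR reads followed an order that ran with the naming of MT. The UV pull-down held 0.661 times the mean input level of MTA, 0.949 of MTB, 1.03 of MTC, 1.19 of MTD and 1.39 of MTE. The no-UV pair gave 0.472, 0.789, 0.802, 1.10 and 3.46 in the same order. The last of these rested on MTEa_dup1681, a copy described further on, and was 1.51 without it. In ORR1 the UV ratios were 0.981 for the letter A, 1.24 for B, 1.57 for C, 1.29 for D, 1.60 for E, 1.78 for F and 2.08 for G, so D broke the order, and the no-UV ratios ran from 0.758 for A to 3.79 for F, with 1.61 for G. Without the most-read copy of each letter, the UV ratio of G was 1.37 and the no-UV ratio of F 2.04, so that G then broke the order too, and the no-UV ratio of G was 0.964, while MT kept its UV order (0.663, 0.890, 1.02, 1.15 and 1.36). Of the old groups, MLT1 LTRs stood at 1.90 with crosslinking and 2.87 without, and MLT2 LTRs at 2.43 and 3.74. ERVL LTRs whose names begin with LTR stood at 2.06 and 2.08. Without the copies all but absent from the inputs, described further on, these 3 groups stood at 1.55 and 1.96, 1.92 and 2.51, and 1.87 and 1.39. ERVL LTRs named MER stood at only 1.20 and 1.27, and MERVL and MT2 LTRs at 0.931 and 1.47. The UV value of MERVL and MT2 LTRs turned to 1.19 without the copy MT2A_dup7165, also described further on, and their no-UV value fell to 1.16. Per annotated read the UV ratio was 0.704 for MTA, 1.01 for MTB, 1.05 for ORR1A and 0.991 for MERVL and MT2 LTRs, so the side of 1 on which MTB and ORR1A lie changed with the total used.

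Another measure moved with the letters of MT. Reads that match several copies are split into fractions in these files, and the share of reads lying in copies with whole counts was 22.7% for MTA, 51.2% for MTB, 80.8% for MTC, 85.7% for MTD and 87.5% for MTE. In ORR1 it was 56.1%, 73.2%, 82.2%, 84.2%, 86.1%, 76.9% and 93.7% from A to G, so F broke this order. Its part in the order of the ratios was not tested. Internal parts had UV ratios of 1.01, 1.12, 1.82, 1.25 and 2.187 from MTA to MTE, an order that MTD broke. In ORR1 they were 0.655, 1.47, 4.64, 1.497, 1.21 and 1.84 from A to F, with no order by letter, and the internal part of G, under 1 RPM in every library, did not reach the filter. Single copies set part of these: without ORR1A2-int_dup182 the ratio of A turned to 1.54, with 100.1 and 91.7 RPM in the UV inputs and 156 and 139 RPM in the pull-downs. Without the most-read copy the ratio of C was 2.38 and that of F 1.28.

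**Figure D2:**
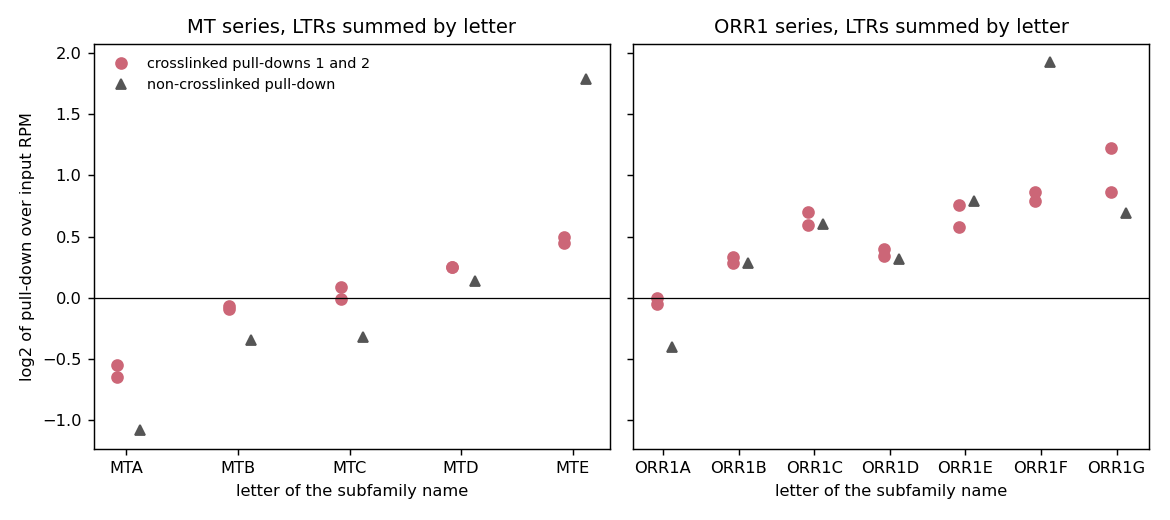
Log2 of pull-down over input RPM for LTRs of the MT (left) and ORR1 (right) series, summed by the letter of the subfamily name. Circles give UV pull-downs 1 and 2, each over the mean of the 2 inputs, and triangles the single no-UV pair. MTA lies below 0 in both states (ratios 0.661 and 0.472) and MTE above it (1.39 and 3.46, of which the latter is 1.51 without the copy MTEa_dup1681), and ORR1D breaks the order of its series.

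Most called members were also higher without crosslinking. Over 131 members with more than 3 reads in each no-UV library, the log2 ratios with and without crosslinking had a Pearson r of 0.79 and a Spearman rho of 0.78, a description across subfamilies that share the same libraries and whose low members are set by few reads. Of the 55 called members, 54 were above the input in the no-UV pair, 37 of them by at least 1 on the log2 scale, a few with 3 reads or fewer in the no-UV input. Over all tested members the no-UV pull-down was above its input for 37 of 55 in ERVL and 59 of 82 in ERVL-MaLR, against 73.4% of transposable element subfamilies and 15.2% of all rows. The median log2 ratio of the called members was 1.03 with crosslinking and 1.67 without, while over the 131 members it was 0.50 and 0.43. Over all transposable element subfamilies it was 0.63 and 0.70, and over all rows -0.30 and -0.90. Of the 131, 60 had a larger ratio in both UV pull-downs than in the no-UV pair, 5 of them by at least 1, and 52 had a smaller ratio in both. No share over all rows or over transposable elements is given here for these counts or for the 37, so they are a description only. With 1 no-UV library per group the differences between the states were not tested.

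The inputs differed more with crosslinking than from their pull-downs. The UV inputs held 2.38 times the ERVL share and 2.69 times the ERVL-MaLR share of the no-UV input, against 1.18 times for ERVK and 1.97 times for ERV1. Among the 131 members the median ratio was 2.43, and it ranged from 1.29 to 9.66, the highest being ORR1A2-int. Intron reads moved alongside, at 16.3% and 15.4% of the UV inputs and 9.09% of the no-UV one, and their part in the difference was not tested.

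**Figure D3:**
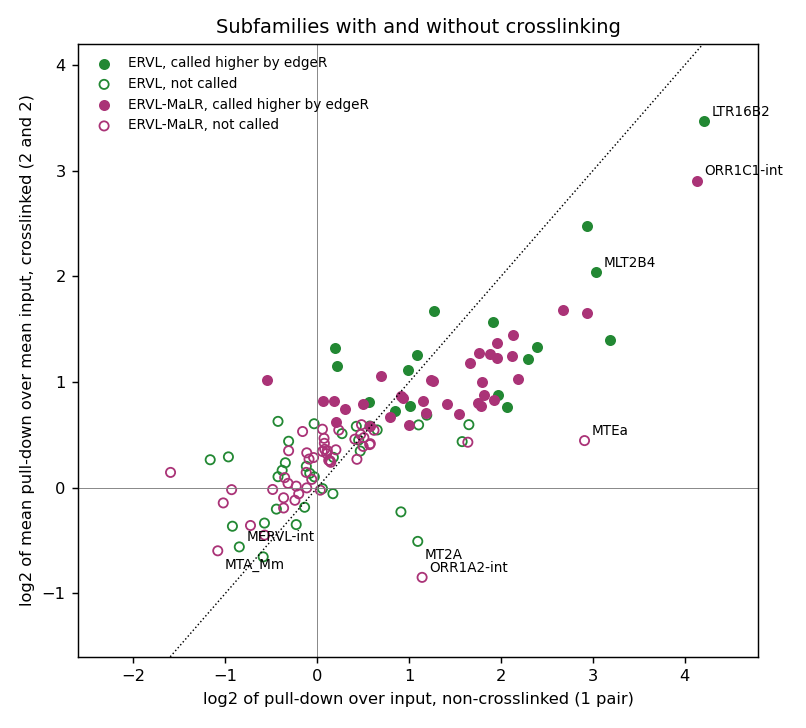
Log2 of pull-down over input RPM for the 131 tested subfamilies with more than 3 reads in each no-UV library, without crosslinking (horizontal axis, 1 pair) and with it (vertical axis, ratio of the means of 2 and 2 libraries). Filled points were called higher by edgeR, the dotted line marks equal ratios, and Pearson r is 0.79; MT2A and ORR1A2-int lie below 0 with crosslinking and above 0 without.

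In ORR1A2-int and MT2A, 1 copy differed in direction from the rest of its subfamily. ORR1A2-int, the member with the most reads, had 522 and 337 RPM in the UV inputs, 227 and 250.1 RPM in the UV pull-downs, 44.5 RPM in the no-UV input and 98.2 RPM in the no-UV pull-down. The UV pull-downs lay below both inputs (log2 fold change -0.75, edgeR adjusted p = 0.125; -1.02 and 0.014, a call, without UV input 2), and the no-UV pull-down lay above its input. Its copy ORR1A2-int_dup182 alone had 489.7 and 305 RPM in the UV inputs, 161 and 191 RPM in the pull-downs, and 29.8 and 62.8 RPM in the no-UV input and pull-down. The copy thus carried 92.4% of the subfamily in the UV inputs, and its UV input level was 13.3 times the no-UV one. It was not called (log2 fold change -1.08, edgeR adjusted p = 0.059), but was without UV input 2 (-1.37, edgeR adjusted p = 0.0048).

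The rest of ORR1A2-int went the other way. All other copies together had 32.7 and 32.5 RPM in the UV inputs, 66.0 and 59.6 RPM in the pull-downs, 14.7 RPM in the no-UV input and 35.4 RPM in its pull-down. Every pull-down was above every input, with a log2 fold change of 1.04 (SE 0.15, edgeR adjusted p = 0.011). MT2A, an LTR related to that of MERVL and the ERVL subfamily with the most reads, had the same layout. It had 53.7 and 85.0 RPM against 45.9 and 51.6 RPM with crosslinking (log2 fold change -0.42, edgeR adjusted p = 0.396), and 20.2 against 43.2 RPM without. The UV difference rested on UV input 2, without which the log2 fold change was -0.03.

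The copy MT2A_dup7165 had 27.4 and 61.1 RPM in the UV inputs, 12.8 and 15.7 RPM in the pull-downs, 8.90 RPM in the no-UV input and 27.3 RPM in its pull-down. It was low in the UV pull-downs and high in the no-UV one, and was not called (log2 fold change -1.55, edgeR adjusted p = 0.061). The log2 fold change was -0.84 without UV input 2 (edgeR adjusted p = 0.096) and -2.03, a call, without UV input 1 (edgeR adjusted p = 0.00042). The remaining copies had 26.3 and 23.9 RPM against 33.1 and 35.9 RPM, and 11.3 against 15.8 RPM (log2 fold change 0.55, edgeR adjusted p = 0.097).

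**Figure D4:**
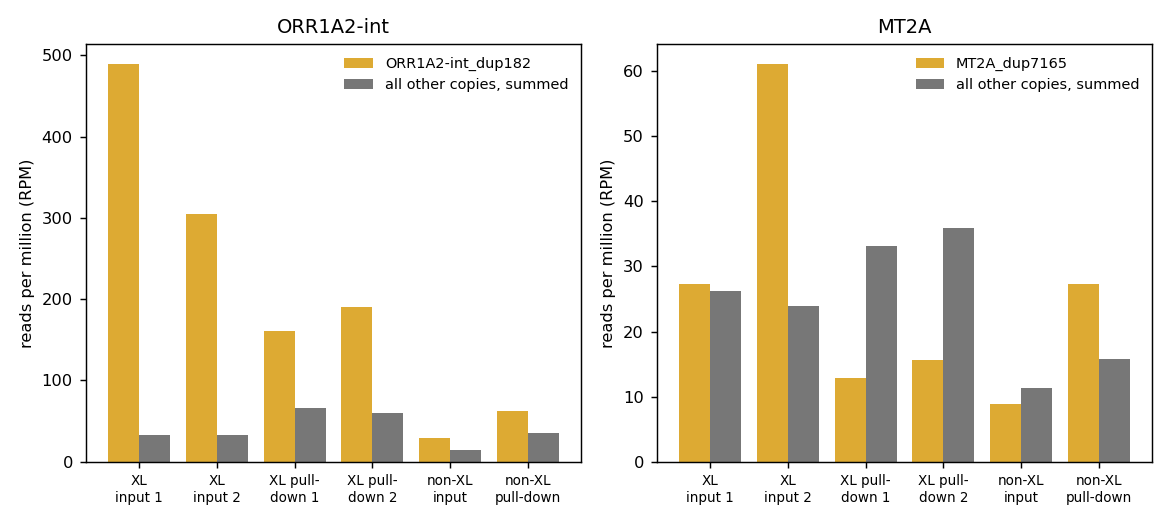
RPM in each of the 6 libraries for the copy with the most reads (yellow) and for the sum of all other copies (grey) of ORR1A2-int (left) and MT2A (right); 1 bar per library, axes from 0. In both subfamilies the leading copy is lower in the UV pull-downs than in the inputs while the other copies are higher, for example 32.7 and 32.5 RPM in the inputs and 66.0 and 59.6 RPM in the pull-downs of ORR1A2-int.

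Other leading copies differed in the opposite sense or varied between replicates. MTEa_dup1681 had 9.11 and 16.0 RPM in the UV inputs, 30.1 and 17.0 RPM in the pull-downs, and 4.81 and 174 RPM in the no-UV input and pull-down. It was not called with all UV libraries (edgeR adjusted p = 0.167), but was without UV input 2 or UV pull-down 2 (edgeR adjusted p = 0.019 and 0.046). Most of the high value of MTEa in the no-UV pull-down (201 RPM, against 26.8 RPM in its input) was that copy, at 86.5%, and the remaining copies differed 1.24-fold there. MTEa itself, an LTR of the oldest MT letter, had 67.7 and 74.8 against 105 and 89.5 RPM with crosslinking (log2 fold change 0.54, edgeR adjusted p = 0.132, and 0.0053 with transposable elements fitted alone).

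ORR1F_dup17590 had 14.5 and 22.9 RPM in the UV inputs, 31.4 and 32.9 RPM in the pull-downs, and 3.89 and 58.7 RPM in the no-UV pair. The pull-downs were higher in both states, without a call (edgeR adjusted p = 0.093, and 0.022 without UV input 2). LTR40c_dup41 had 8.33 and 7.38 RPM against 22.3 and 18.1 RPM with crosslinking, and 0.919 against 2.81 RPM without, and was called (log2 fold change 1.45, SE 0.18, edgeR adjusted p = 0.0033). It held 93.8% of the reads of LTR40c in the UV pull-downs, and the other copies showed a log2 fold change of 0.26 (edgeR adjusted p = 0.649).

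RMER10B_dup1974 was also called, at 2.83 and 3.71 against 7.59 and 5.83 RPM (log2 fold change 1.11, edgeR adjusted p = 0.022), a call lost without UV input 1 or UV pull-down 1 (edgeR adjusted p = 0.063 and 0.052). In RMER10A_dup195 (2.26 and 4.04 against 9.24 and 1.58 RPM) and MLT1A0_dup1637 (3.72 and 7.73 against 30.0 and 7.90 RPM) the pull-downs differed from each other by more than the groups did. Neither copy was called with all libraries. Without UV pull-down 2 both were (edgeR adjusted p = 0.016 and 0.0040), MLT1A0_dup1637 also without UV input 2 (edgeR adjusted p = 0.014), and RMER10A_dup195 turned to -0.90 on the log2 scale without UV pull-down 1. For MLT1A0 the other copies were called without it (log2 fold change 1.21, edgeR adjusted p = 0.0053).

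Over single copies, 32 ERVL and 119 ERVL-MaLR copies reached a mean of 1 RPM, and these held 19.6% and 23.6% of the reads of their families. In ERVL 20 were called higher and 1 lower, and in ERVL-MaLR 80 were called higher and 0 lower, where edgeR had 2 lower at an unadjusted p under 0.05, DESeq2 called 0 lower and limma 1. Of the 100 called higher, 96 had a mean UV input level under 1 RPM and so passed the filter only through the pull-downs, which means that they had to differ. Of the 12 ERVL and 35 ERVL-MaLR copies whose inputs averaged 1 RPM or more, 2 and 2 were called higher: LTR40c_dup41, RMER10B_dup1974, ORR1G_dup438 and ORR1E_dup5273. Over all features tested, 6.44% were called higher and 3.5% lower, and over copies of all transposable elements 51.2% and 16.3%.

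Many of the called copies were all but absent from the inputs. A group of 100 copies, 17 of ERVL and 83 of ERVL-MaLR, had at least 1 RPM in each of the 3 pull-downs and no more than 3 reads over the 3 inputs together, a definition set after the values were seen and so given with no test. Together they had 0.793 and 0.979 RPM in the UV inputs, 0.671 RPM in the no-UV input, 336 and 362 RPM in the UV pull-downs and 338 RPM in the no-UV pull-down. The choice asks for a minimum in all 3 pull-downs, so it also fixes in part how alike they are. The highest of the 3 pull-down values of a copy was a median of 1.31 times the lowest, and 85 of the 100 stayed within 1.5 times.

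These copies came from 51 subfamilies, 73 were LTRs and 27 internal parts, and 71 had 0 reads in every input. The highest was ORR1F_dup7939, with 0 reads in the inputs, 13.0 and 15.4 RPM in the UV pull-downs and 14.2 RPM in the no-UV pull-down, at least 84.8-fold and 67.2-fold above a floor of 3 reads per library. MLT1A0_dup9638, an old MaLR LTR, had 9.90, 9.79 and 9.68 RPM in the same 3 pull-downs, and the ERVL copy MT2B_dup8333 had 6.14, 6.60 and 5.77 RPM, both with 0 reads in the inputs. MTD contributed 7 copies and MTE-int and MTE2b 5 each.

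**Figure D5:**
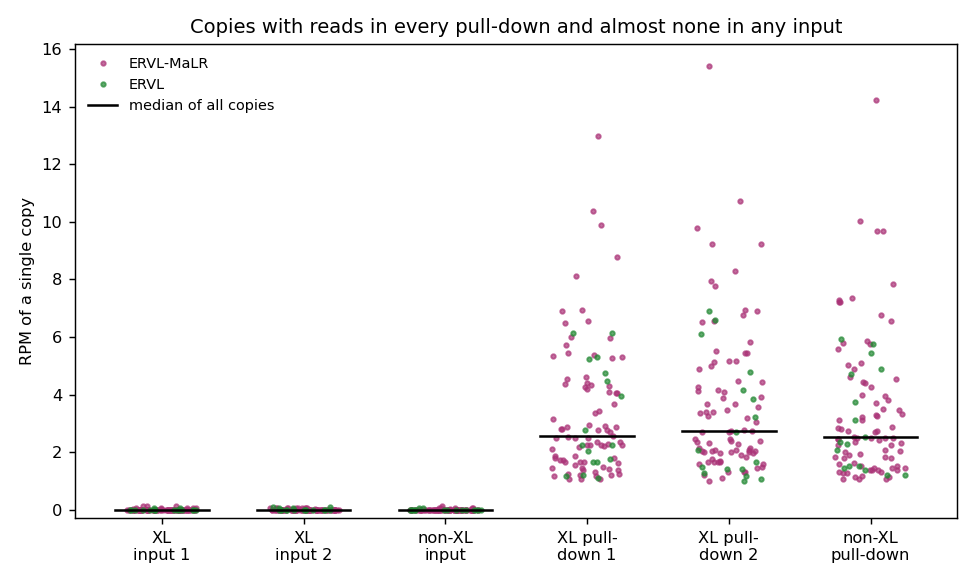
RPM of each of the 100 copies with at least 1 RPM in every pull-down and no more than 3 reads over the 3 inputs, by library (XL, UV; non-XL, no UV; points spread sideways for visibility; lines, medians). Selection by these values fixes the gap between inputs and pull-downs and, in part, the likeness of the 3 pull-downs, which have sums of 336, 362 and 338 RPM.

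The copies were chosen for being high in pull-downs and near 0 in inputs, so their part in the family differences is a description that the choice fixes in direction. They made up 38.8% of the RPM that separated UV pull-downs from inputs in ERVL and 58.7% in ERVL-MaLR, and 50.9% and 46.6% in the no-UV pair. The UV ratio over all other copies was 1.18 in ERVL and 1.09 in ERVL-MaLR, and the no-UV ratio was 1.26 and 1.39. Such copies were 46.4% of the tested ERVL and ERVL-MaLR copies, against 1.57% of all features tested, 59.4% of LINE, 67.4% of DNA transposon, 50.5% of SINE, 9.72% of ERVK and 13.9% of ERV1 copies.

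Some copies had reads in the UV pull-downs and almost none in the other libraries. Their number is given without a share over all features or over transposable element copies, so it cannot be called small or large. At least 1 RPM in both UV pull-downs, with no more than 3 reads over the inputs and no more than 3 in the no-UV pull-down, was met by 5 copies, a choice also made after the values were seen. LTR16A_dup525, an ERVL LTR, had 3.78 and 10.7 RPM in the UV pull-downs and 0.0759 RPM in the no-UV one. RMER10A_dup294 had 1.35 and 3.68 RPM, MTD_dup7696 1.63 and 2.89 RPM, ORR1A3_dup1169 2.48 and 2.31 RPM, and MTE-int_dup4021 1.49 and 1.07 RPM, against at most 0.19 RPM in the no-UV pull-down. For LTR16A_dup525 and RMER10A_dup294 the UV pull-downs differed from each other more than those of the other 3 copies.

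The authors' deposited table of 1 enrichment ratio per feature covered 132 ERVL and 489 ERVL-MaLR copies. Their median ratios in the authors' deposited table were 1.93 and 1.58, against 1.37 over its 216085 features, 0.992 over ERVK and 1.10 over ERV1. A ratio above 1 was held by 78.0% and 74.6% of them, against 74.6% of all its features, 49.6% of ERVK and 53.6% of ERV1. Of the 100 copies all but absent from the inputs, 4 were among those covered. In the authors' deposited table, MT2B1_dup6913 had the highest ERVL ratio (162) and MTE-int_dup212 the highest ERVL-MaLR ratio (235). Both belong to the copies all but absent from the inputs. Each had 2 reads over all inputs together, so these high ratios came with almost no input reads. How the libraries were combined into that ratio is not given in the sources used here.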

How the data were processed

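Per the labels, the 6 libraries came from 4 groups. The authors deposited, for each library, expected counts per feature, and the same values as RPM of all its reads. Class totals are whole numbers, so reads matching several features of a class had been split. Per the submitters' processing notes, bcl2fastq 2.19, STAR 2.5.2b, bedtools 2.29.0 and the mm10 build were used. Their settings, and whether PCR duplicates were removed, are not given in the sources used here. The authors deposited 1 ratio (fold enrichment) per feature for the series.

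Expected counts were summed per subfamily for all transposable elements, rounded, and tested between crosslinked pull-downs and inputs with edgeR 4.0.16 (glmQLFit and glmQLFTest, R 4.3.3) on rows averaging 1 RPM or more in the 4 crosslinked (UV) libraries. Library sizes were the annotated reads, and p-values were adjusted over all rows tested by Benjamini-Hochberg. Unannotated reads (6.99% to 14.4%) were left out of the fit but kept in RPM, so a log2 fold change and a ratio of RPM differ slightly. A second fit used 39872 single features. Scripts were tested on simulated data. DESeq2 1.42.0 and limma 3.58.1, on log2(RPM + 1), were alternatives.

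Named subfamilies were, per family, the 5 with the most reads, up to 5 called in each direction with the largest log2 fold change and no overlap, MERVL-int, MT2_Mm, MTA_Mm, ORR1A0 and their internal parts, and the 5 copies with the most reads. Other copies, and MERVL-int_dup826, were chosen after their values were seen. Members, lists and rules were chosen with earlier results of these data known. Shares and ratios were compared by exact permutation tests, and single-library shares carry 95% Wilson intervals.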

Additional observations from a re-analysis of the deposited data

Results flagged for a closer look

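Each difference in this section was singled out because the UV pull-downs all lay on one side of their inputs and the no-UV pull-down on the other side of its own. The difference between the states was not tested, since each no-UV group has 1 library. The no-UV pull-down exceeded its input 2.14-fold for MT2A and 2.21-fold for ORR1A2-int, and 3.07-fold for the copy MT2A_dup7165 and 2.11-fold for ORR1A2-int_dup182, while both UV pull-downs were lower than both inputs. The ratio of internal to LTR reads of ERVL-MaLR was higher by 0.13 on the log2 scale in the no-UV pull-down, while the difference was -0.38 in the UV ones. Reads of both families per ERV1 read were higher by 0.21 on the log2 scale in the no-UV pull-down, with a difference of -0.12 in the UV ones. That UV difference rested on ORR1A2-int_dup182: without it the ratio was 6.86 and 6.72 in the UV inputs and 7.09 and 6.74 in the UV pull-downs, which overlapped at 0.03. The internal to LTR difference turned to 0.30 without the same copy. The UV difference of MT2A rested on UV input 2, without which it was -0.03.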

How the results depend on the processing

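Counts of called members moved with the filter and the copies summed. With no filter (598965 rows of the subfamily table) edgeR called 0 of either family (42 ERVL and 55 ERVL-MaLR subfamilies higher at an unadjusted p under 0.05), a loss that held for every named subfamily called in the report. A filter at 5 RPM gave 9 ERVL calls among 21 tested, and dropping the top copy of each subfamily gave 9 ERVL calls among 42 tested and 18 ERVL-MaLR calls among 79. Of all calls, 31 of 33 and 24 of 27 were shared with the 55. With transposable elements fitted alone, 1 ERVL (MERVL-int) and 2 ERVL-MaLR subfamilies (MTA_Mm and ORR1A2-int) were called lower. Leaving out each library in turn gave 16 to 20 ERVL and 19 to 27 ERVL-MaLR subfamilies higher and 0 to 1 ERVL-MaLR lower (ORR1A2-int, without UV input 2). Under the replicate block, 15 ERVL and 31 ERVL-MaLR subfamilies and 2 lower ERVL copies were called; same-numbered libraries had a correlation of deviations of 0.12, and no label says that a number marks a shared batch. Of the 55 higher calls, 39 were shared with DESeq2 and 55 with TMM factors.

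Over single copies, a filter at 0.5 RPM gave 41 ERVL and 136 ERVL-MaLR copies higher and 6 ERVL-MaLR lower, one at 5 RPM gave 1, 5 and 0 ERVL lower, and none gave 0 throughout (293 and 1371 higher at an unadjusted p under 0.05). ERVL copies lower were 0 with TMM, and 2 with unannotated reads and with limma at either pseudocount, settings in which ERVL-MaLR copies lower were 1. Leaving out a library gave 0 to 2 and 0 to 1.

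The log2 difference of the ERVL share (0.37) became 0.46 over annotated reads, 0.57 without rRNA, 0.40 over LTR element reads, 0.30 without top copies and 0.24 without pull-down-only copies, the last added after seeing the data. That of ERVL-MaLR (0.29) became 0.49 without rRNA and 0.13 without pull-down-only copies. The internal to LTR ratio of ERVL-MaLR turned to 0.23 without top copies, 0.24 without the most-read subfamilies and 0.30 without ORR1A2-int_dup182. That of ERVL ranged from -0.1032 to 0.0667 over libraries left out. ERVL over ERVL-MaLR turned to -0.0457 without top copies and -0.0985 without ORR1A2-int_dup182, and ranged from -0.024 to 0.19 over libraries left out. MT2A turned to 0.55 and ORR1A2-int to 1.04 without top copies, and ORR1A0-int (0.09) to -0.0002 with unannotated reads, -0.0059 and -0.0063 with limma at pseudocounts 1 and 0.5, and from -0.0452 to 0.2132 over libraries left out. The cause of these shifts was not tested beyond what each setting removes. With 2 libraries per group and a median of 0.667 reads per copy, differences in most copies were not detectable at this depth.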
